A study of Mus musculus with 6 samples.

Results

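Natriuretic peptides and nitric oxide both act through cyclic GMP, and 8 genes of that route were followed in mouse hepatic stellate cells under obeticholic acid (OCA). The genes were Npr1, Npr2 and Npr3 for the natriuretic peptide receptors, Gucy1a1 and Gucy1b1 (older symbols Gucy1a3 and Gucy1b3) for soluble guanylyl cyclase, Prkg1 and Prkg2 for the cGMP-dependent kinases, and Pde5a for a phosphodiesterase that cleaves cGMP. They were taken by symbol from a table of 24940 genes, and all 8 were found. They were chosen with their difference between OCA and the vehicle already known, so their levels and fold changes under that contrast are given as a description, without p-values.

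Primary hepatic stellate cells, liver pericytes that store vitamin A, were isolated from female mice of the strain C57BL/6JBomTac (spelled C57BL6/JBomTac in another label); the sources used here give no age and no allele beyond the strain. Starting 2 days after isolation they were kept for 6 hours with 10 µM OCA, a bile acid derivative and agonist of the nuclear receptor FXR, or with an equal volume of the vehicle DMSO, added to the medium already on the cells. Polyadenylated RNA was sequenced in 3 OCA and 3 DMSO libraries, each called here by its treatment and replicate letter. The labels do not tie the libraries to animals or to culture dishes, so errors and tests measure only how far these libraries differ, and that spread may be technical.

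Npr1 and Npr2 encode membrane guanylyl cyclases: the first binds atrial and B-type natriuretic peptide and the second C-type natriuretic peptide, and each makes cGMP when bound. Npr3 encodes the clearance receptor, which binds the same peptides, takes them into the cell and carries no cyclase domain. Nitric oxide reaches the same second messenger through soluble guanylyl cyclase, and cGMP then acts on the kinases until phosphodiesterases cleave it. In contractile cells such as pericytes and vascular smooth muscle, this route is known for relaxing the cell.

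The receptors differ in the length of the annotated reading frames of the counted transcripts (GENCODE M21, the same mouse build mm10 as the table). The frames were read for length only, and the domains named here are general knowledge of these receptors. The frame of Npr3 spans 1611 bases or 536 codons before the stop, against 3174 bases and 1057 codons for Npr1 and 3144 bases and 1047 codons for Npr2. The last 120 bases of the Npr3 frame are shown because they encode the short cytoplasmic tail that stands where the other 2 receptors carry their kinase-like and cyclase domains. They lie on the minus strand of chromosome 15, in coding exon 8 (chr15:11845177-11845288) and, for the first 8 bases, exon 7 (chr15:11846298-11846305), and the stop codon is in capitals.
Npr3 end of reading frame: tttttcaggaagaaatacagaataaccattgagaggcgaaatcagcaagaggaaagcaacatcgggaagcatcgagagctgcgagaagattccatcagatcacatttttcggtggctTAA

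Column totals lay between 12260882 and 16336240 counts. Levels are in CPM, the usual per-million scaling of counts to library size, with sizes adjusted by edgeR's TMM method, and are summarised as mean ± SD (n = 3). Log2 fold changes compare OCA with DMSO and carry their standard error (SE). A gene is called when its adjusted p from edgeR's quasi-likelihood test (Benjamini-Hochberg over 12687 genes) is under 0.05. Of the genes tested, 276 were called higher and 384 lower. Libraries differed along transcript length: in the longest eighth of genes (5782 bases and more) OCA B was the highest of its group for 54.7% of genes and DMSO A for 69.2%, and the median log2 fold change there was -0.14. With offsets that remove each library's length trend, 378 genes were higher and 227 lower. All 10 stellate cell markers passed the filter on low counts, with summed levels of 1651 to 2075 CPM in OCA and 1995 to 2156 CPM in DMSO, and 2 of them, Reln and Rgs5, were lower under OCA. Endothelial markers summed to 32.2 to 37.9 CPM in OCA and 26.4 to 34.9 CPM in DMSO, most of it Egfl7, Stab1 and Tek, while the other 7, among them Stab2, Pecam1 and Cdh5, stayed under 1 CPM. Macrophage markers summed to at most 12.7 CPM, hepatocyte markers to at most 15.6 CPM, bile duct markers to at most 7.48 CPM (Krt7 and Cftr had no counts), and mesothelial and portal fibroblast markers to at most 2.63 CPM (Thy1 and Gpm6a had no counts). Smooth muscle markers, several of which stellate cells also express, summed to 1078 to 1107 CPM in OCA and 946 to 1106 CPM in DMSO. Most of that sum was Acta2 (mean of 440 CPM over all libraries) and Des (398 CPM), and Des is also counted among the stellate markers. Smtn had a mean of 167 CPM, Myh11 of 37.9 CPM, Actg2 of 7.46 CPM and Cnn1 of 0.364 CPM.

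Of the 8 genes, 7 passed the filter on low counts and 1, Npr3, was called, in the upward direction. Among all tested genes 2.18% were called higher and 3.03% lower, 5.2% in either direction. The OCA and DMSO libraries did not overlap for 3 of the 8, higher for Npr3 and lower for Gucy1a1 and Gucy1b1; among all tested genes this held for 23%, with 11.6% higher and 11.3% lower. Nothing is read from these counts, since the contrast was known when the genes were chosen. The median log2 fold change of the 7 was -0.12, against 0.000765 over all tested genes. In bulk RNA, fewer cells of a type and less RNA per cell cannot be told apart.

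Npr3 (NM_008728, mm10 chromosome 15, 11839897 to 11905674, minus strand) was at 153 CPM in DMSO A, 152 CPM in DMSO B and 154 CPM in DMSO C. Under OCA it was at 293 CPM in library A, 306 CPM in B and 304 CPM in C. The groups were far apart, and within each group the libraries differed by little: the means were 153 ± 1.10 and 301 ± 7.02 CPM, a ratio of 1.97. The log2 fold change was 0.98 (SE 0.06), with a 95% interval of 0.84 to 1.11. Among all tested genes, 1.23% had a log2 fold change of larger size, and 7.55% had a higher mean level. The transcript is 6916 bases long and so belongs to the longest eighth of genes, whose median change was in the other direction. With the length offsets the value was 1.09, and without OCA B and DMSO A it was 0.96.

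Npr2 (NM_173788, chromosome 4, 43631935 to 43651437, plus strand), the cyclase receptor for C-type natriuretic peptide, was at 56.4, 50.6 and 52.5 CPM in DMSO A, B and C and at 53.0, 59.2 and 51.7 CPM in OCA A, B and C. The groups overlapped almost entirely. On the log2 scale the change was 0.04 (SE 0.08), and its 95% interval ran from -0.14 to 0.21, which leaves out a change of the size seen for Npr3.

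Npr1 (NM_008727, chromosome 3, 90450592 to 90465866, minus strand), the cyclase receptor for atrial natriuretic peptide, was near the lower end of what could be tested. It had 38, 28 and 38 counts in DMSO A, B and C and 14, 33.5 and 31.5 counts in OCA A, B and C. OCA A alone lay low, at 1.05 CPM, while the other 5 libraries lay between 2.29 and 2.57 CPM. The log2 fold change was -0.21 (SE 0.38, 95% interval -1.01 to 0.60), and without OCA A it turned to 0.11. The summed counts, rounded to 79 in OCA and 104 in DMSO, gave a depth-scaled ratio of 0.853 with an exact 95% counting interval of 0.628 to 1.15. Such intervals cover counting error only. An increase of the size seen for Npr3 was outside both intervals, while the fitted interval included a decrease of that size.

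**Figure D1:**
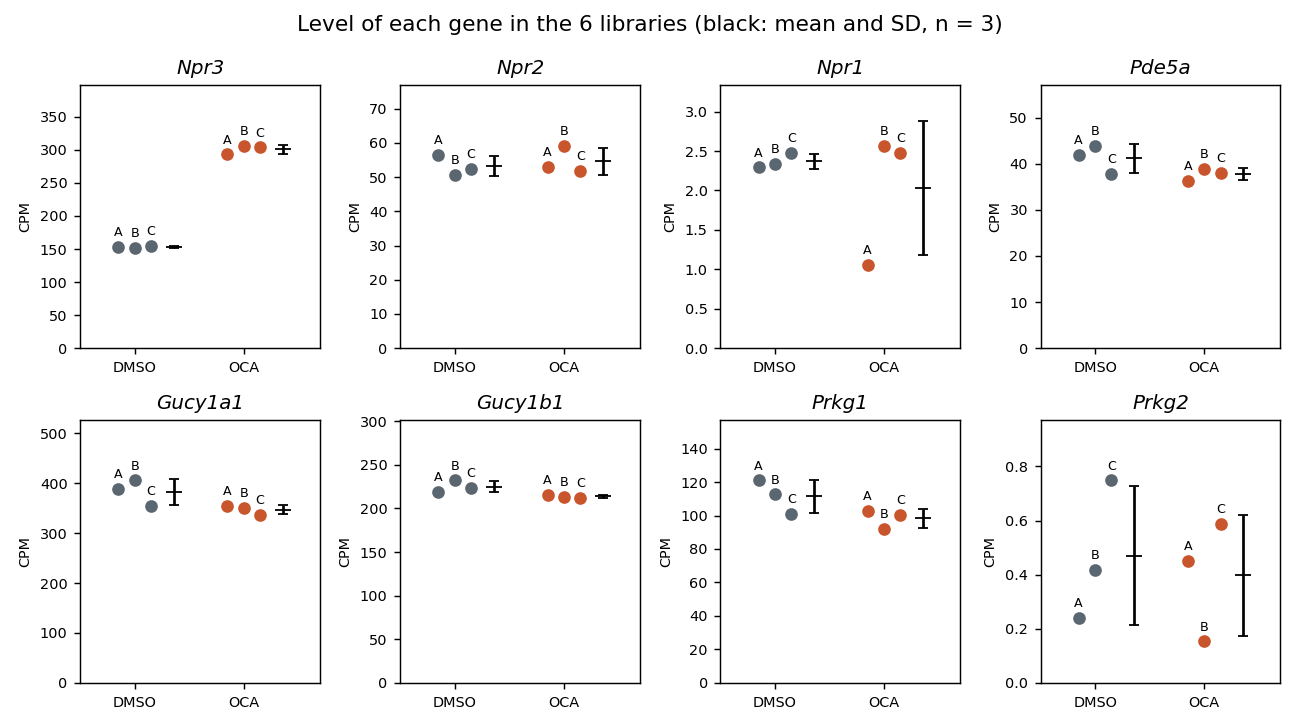
Level of each of the 8 genes in CPM (vertical axes, each from 0) in the 3 DMSO and 3 OCA libraries, with library letters and, in black, the mean and SD of n = 3. For Npr3 the OCA libraries sit between 293 and 306 CPM and the DMSO libraries between 152 and 154 CPM, and for Npr1 the library OCA A sits below the other 5.

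Among the 3 receptors, Npr3 had the most transcripts per length in each library, and its lead was larger under OCA. Levels between genes are compared as CPM per kilobase of exon (CPM per kb). Npr3 had 22.1 ± 0.160 CPM per kb in DMSO and 43.5 ± 1.02 in OCA, Npr2 had 13.9 ± 0.778 and 14.3 ± 1.04, and Npr1 had 0.586 ± 0.0229 and 0.503 ± 0.210. The clearance receptor thus made up 59.1%, 61.4% and 60.9% of the summed receptor level in DMSO A, B and C. In OCA A, B and C it made up 75.0%, 73.4% and 75.7%. The groups did not overlap, and the mean share went from 60.5 ± 1.19% to 74.7 ± 1.20%. The share of Npr2 was 37.9 ± 1.26% in DMSO and 24.5 ± 1.17% in OCA, and that of Npr1 was 1.60 ± 0.0800% and 0.856 ± 0.342%. Per cyclase-bearing Npr2 transcript there were 1.60 ± 0.0831 Npr3 transcripts per length in DMSO and 3.06 ± 0.194 in OCA. The sum of Npr1 and Npr2 had overlapping groups, with 14.5 ± 0.768 CPM per kb in DMSO and 14.8 ± 1.15 in OCA. These shares restate the receptors' own values and are no separate test.

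**Figure D2:**
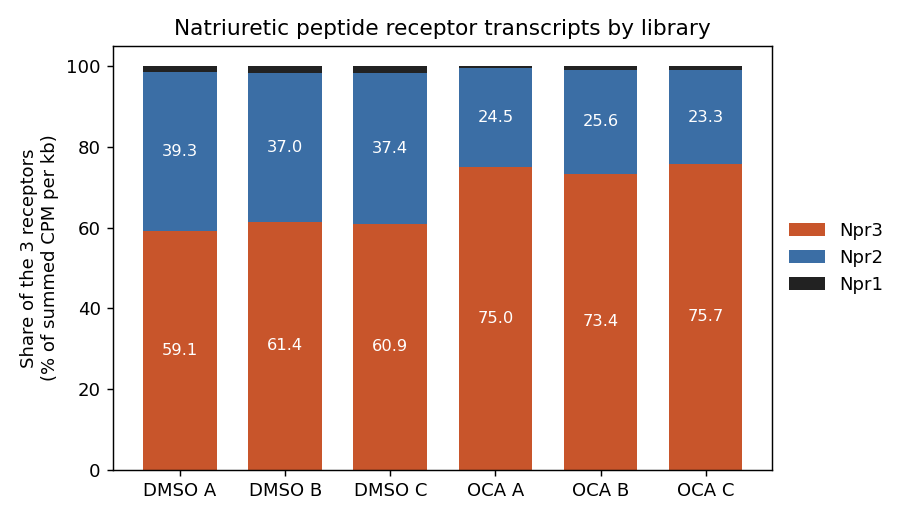
Share of Npr3, Npr2 and Npr1 in the summed level of the 3 receptors (vertical axis, percent of CPM per kb) in each library. The Npr3 segment covers 59.1% to 61.4% in DMSO and 73.4% to 75.7% in OCA, and the Npr1 segment at the top is the smallest in each library.

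Gucy1a1 and Gucy1b1 encode the alpha and beta subunits that form the nitric oxide receptor, soluble guanylyl cyclase. The genes are neighbours on the minus strand of chromosome 3, Gucy1b1 (NM_017469) at 82032004 to 82074711 and Gucy1a1 (NM_021896) at 82092427 to 82145946, with 17715 bases between them. Gucy1a1 was at 388, 406 and 355 CPM in DMSO A, B and C and at 354, 350 and 337 CPM in OCA A, B and C. Gucy1b1 was at 219, 232 and 223 CPM in DMSO A, B and C and at 216, 214 and 212 CPM in OCA A, B and C. In both genes the highest OCA library lay just below the lowest DMSO library, by a margin under the spread of the DMSO libraries. Groups that did not overlap in the downward direction were found in 11.3% of all tested genes, so the separation is not read as a change. Log2 fold changes were -0.14 (SE 0.07, 95% interval -0.29 to 0.01) for Gucy1a1 and -0.07 (SE 0.06, 95% interval -0.20 to 0.06) for Gucy1b1. With the length offsets they were -0.08 for Gucy1a1 and -0.05 for Gucy1b1. Neither was called. The alpha subunit had 1.17 ± 0.0675 transcripts per length for each beta transcript in DMSO and 1.11 ± 0.0200 in OCA, with overlapping groups.

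Prkg1 (NM_001013833, chromosome 19, 30564487 to 31765033, minus strand) encodes the type I cGMP-dependent kinase, the main cGMP effector in contractile cells. It was at 121, 113 and 101 CPM in DMSO A, B and C and at 103, 91.9 and 100 CPM in OCA A, B and C. OCA A lay above DMSO C, so the groups overlapped. Its log2 fold change of -0.18 (SE 0.08, 95% interval -0.34 to -0.03) was not called after adjustment over all genes. At 6958 bases the transcript falls in the longest eighth of genes, whose median was -0.14. With the length offsets the value was -0.06, and without OCA B and DMSO A it was -0.07. The part that transcript length plays in the difference was not tested further.

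Prkg2 (NM_008926, chromosome 5, 98929773 to 99037079, minus strand), which encodes the membrane-bound type II kinase, did not pass the filter. It had 4, 5 and 11.5 counts in DMSO A, B and C and 6, 2 and 7.5 counts in OCA A, B and C. The rounded sums of 20 and 16 counts gave a depth-scaled ratio of 0.898 with an exact 95% counting interval of 0.435 to 1.82, too wide to show a difference in either direction.

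Pde5a (NM_153422, chromosome 3, 122729158 to 122859374, plus strand), the phosphodiesterase that sildenafil inhibits, was at 41.9, 43.9 and 37.7 CPM in DMSO A, B and C and at 36.3, 39.0 and 37.9 CPM in OCA A, B and C. The groups overlapped, through DMSO C. The log2 fold change was -0.12 (SE 0.09, 95% interval -0.31 to 0.07), and with the length offsets it was -0.01.

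Per length, the order of levels in DMSO was Gucy1a1 (81.3 ± 5.47 CPM per kb), Gucy1b1 (69.5 ± 2.02), Npr3, Prkg1 (16.0 ± 1.43), Npr2, Pde5a (6.14 ± 0.470), Npr1 and Prkg2 (0.100 ± 0.0550). Prkg1 and Npr2 were the single pair of neighbours whose libraries overlapped. Under OCA the same pair overlapped again, with Npr2 at 14.3 ± 1.04 and Prkg1 at 14.1 ± 0.814 CPM per kb, and every other neighbour in the order was separated. Npr3 stayed in the third place and came nearer to Gucy1b1: the beta subunit had 3.14 times the Npr3 level in DMSO and 1.52 times in OCA. Both orders describe these libraries and were not tested.

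The other 77 genes of the pathway came from 6 lists built on general knowledge of the route, chosen with earlier results of these data known. Of these genes, 41 passed the filter on low counts, none was called higher, 3 were called lower and 38 were not called. The shares called among all tested genes were 2.18% higher and 3.03% lower. The 41 had a median log2 fold change of 0.01, with 22 above 0 and 19 below. The 3 that fell were Gucy1a2, Pde3a and Mrvi1, one each from the lists of cyclases, phosphodiesterases and kinase substrates. The 10 stellate cell markers did not move together: 8 were not called, 4 of 10 had a log2 fold change above 0, and the median was -0.08. Reln (547 ± 73.6 to 325 ± 143 CPM, adjusted p = 0.0198 by edgeR) and Rgs5 (61.6 ± 6.25 to 45.8 ± 8.95 CPM, adjusted p = 0.0326) were called lower. The Reln transcript has 11632 bases and lies in the longest eighth of genes, and its OCA B (489 CPM) was close to DMSO C (502 CPM). Values of these markers under the alternatives are not given. Among the 8 not called, Lrat (0.32), Des (0.19) and Colec11 (0.25) had OCA libraries all above the DMSO libraries, as did 11.6% of all tested genes. The part of stellate cell markers in the change of the 3 pathway genes was not tested.

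Ligand transcripts were few or had no counts. Nppa, for atrial natriuretic peptide, had 6 counts in DMSO A, 0.5 in OCA C and none in the other libraries. Nppc, for C-type natriuretic peptide, had no counts in DMSO, where 3 counts over the group correspond to 0.0683 CPM, and 2 counts over the OCA libraries. Nppb, for B-type natriuretic peptide, was the single ligand tested, with 1.72, 2.47 and 3.87 CPM in DMSO A, B and C and 1.91, 1.73 and 5.02 CPM in OCA A, B and C. Library C was the highest in both groups, and the groups overlapped (log2 fold change 0.09, SE 0.42, adjusted p = 0.93 by edgeR). Ostn, which encodes a peptide ligand of the clearance receptor, had no counts in any library. Of 8 genes for peptides and their processing, 3 were tested and none was called. The convertase gene Furin was at 197 ± 7.34 CPM in DMSO and 191 ± 34.0 in OCA, and Ide, for the insulin-degrading enzyme, was at 142 ± 1.98 and 143 ± 6.71 CPM. No ligand transcript was above 5.02 CPM in any library.

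Among 11 other cyclase genes, guanylins and cyclase activators, 2 were tested and 1 fell, while 3.03% of all tested genes were called lower. Gucy1a2 (chromosome 9), which encodes the alternative alpha-2 subunit of soluble guanylyl cyclase, was at 99.5, 90.9 and 75.0 CPM in DMSO A, B and C and at 62.3, 67.3 and 71.8 CPM in OCA A, B and C. Each OCA library lay below each DMSO library, as in 11.3% of all tested genes, though OCA C and DMSO C were close. Its log2 fold change was -0.40 (SE 0.09, adjusted p = 0.014 by edgeR). It was no longer called in fits that left out OCA A (adjusted p = 0.0861), DMSO A (0.11) or DMSO B (0.0658), with log2 fold changes of -0.30 to -0.38. The transcript is 13713 bases long, and with the length offsets the value was -0.17 (adjusted p = 0.263 by edgeR). Per length, Gucy1a2 had 6.45 ± 0.905 CPM per kb in DMSO, far below the 81.3 of Gucy1a1. Gucy2c, the intestinal guanylin receptor, and Guca2b had no counts.

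Nitric oxide synthesis was represented by 18 genes, of which 13 were tested and none was called, with a median log2 fold change of 0.00219. Nos1 was the only synthase gene tested, at 7.15 ± 0.626 CPM in DMSO and 6.44 ± 1.33 in OCA. It was not called (log2 fold change -0.15, SE 0.22, adjusted p = 0.748 by edgeR). Nos3, the endothelial synthase, was too low to be tested, with 11, 3 and 0 counts in DMSO A, B and C and 0, 3 and 1 in OCA A, B and C. Of the 10 endothelial markers, 7 were too low to be tested, and the other 3 were not called: in summed counts, DMSO first, Egfl7 had 929.5 and 1008, Stab1 170.5 and 180.5, and Tek 154.5 and 123.5. The arginine transporter gene Slc7a1 was at 336 ± 15.7 CPM in DMSO and 342 ± 21.2 in OCA, and Cyb5r3, for a reductase that keeps the haem of soluble guanylyl cyclase in its reduced form, was at 212 ± 23.8 and 182 ± 31.1 CPM. Cyb5r3 was not called in the fit of all libraries (adjusted p = 0.238 by edgeR) but was called lower without OCA B and DMSO A (log2 fold change -0.35, adjusted p = 0.000323) and without the count filter (-0.23, adjusted p = 0.0255).

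Of 15 other genes named for phosphodiesterases that bind or cleave cGMP, or for subunits of these, 8 were tested and 1 fell. The share called lower among all tested genes was 3.03%. Pde3a, for an enzyme that cleaves cAMP and is inhibited by cGMP, was at 164, 168 and 131 CPM in DMSO A, B and C and at 117, 138 and 116 CPM in OCA A, B and C. OCA B lay above DMSO C, so the groups overlapped. Its log2 fold change was -0.32 (SE 0.09, adjusted p = 0.0411 by edgeR). It was no longer called when DMSO A (adjusted p = 0.196), DMSO B (0.154), OCA A (0.185) or OCA C (0.174) was left out, or with robust estimation (0.0606). The log2 fold change was -0.25 to -0.28 in those fits without a library and -0.32 with robust estimation. Pde2a, for an enzyme that cGMP activates, was named after its values were seen. It was at 16.9 ± 1.41 CPM in DMSO and 22.4 ± 1.49 in OCA, and it was not called (log2 fold change 0.40, SE 0.12, adjusted p = 0.0712 by edgeR). With the length offsets it was called (0.45, adjusted p = 0.0299), as it was without OCA B (0.45, adjusted p = 0.0466).

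Among 17 substrates and effectors of the kinases, 13 were tested and 1 fell, and the median log2 fold change was 0.04. The share called lower among all tested genes was 3.03%. Mrvi1, also named Irag1, encodes the protein through which the type I kinase restrains calcium release at the inositol trisphosphate receptor. It was at 174, 174 and 160 CPM in DMSO A, B and C and at 131, 153 and 143 CPM in OCA A, B and C. The groups did not overlap, as in 11.3% of all tested genes in this direction. The log2 fold change was -0.25 (SE 0.07, adjusted p = 0.0456 by edgeR). Of the single libraries, only OCA B could be left out with the call kept: adjusted p was 0.161 without DMSO A, 0.114 without DMSO B, 0.0685 without DMSO C, 0.238 without OCA A and 0.133 without OCA C, with log2 fold changes of -0.19 to -0.29. The call was also lost with the length offsets, where the value was -0.14 (adjusted p = 0.274 by edgeR). Among cGMP exporters and cyclic nucleotide-gated channels, 2 of 8 genes were tested and none was called. The exporter gene Abcc4 was at 82.1 ± 6.45 CPM in DMSO and 81.9 ± 3.52 in OCA, Abcc5 was at 29.9 ± 4.43 and 30.9 ± 4.08 CPM, and the channel genes Cnga2, Cnga4 and Cngb3 had no counts.

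**Figure D3:**
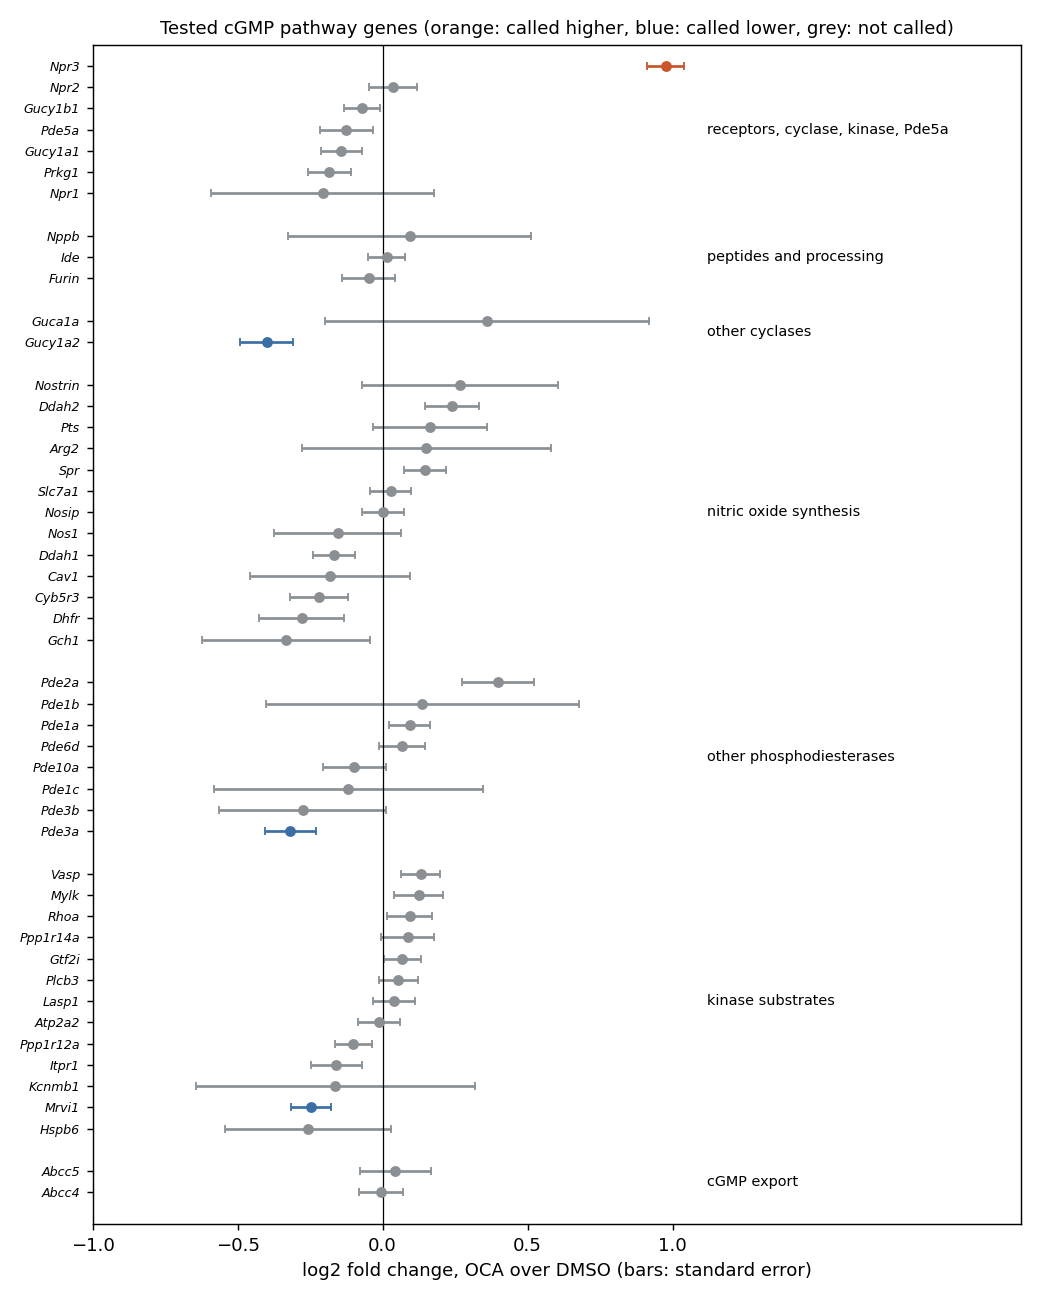
Log2 fold change of OCA over DMSO (horizontal axis) with its standard error for the 7 tested genes described first and the 41 other tested pathway genes, grouped by list. Npr3 at 0.98 stands apart to the right, Gucy1a2, Pde3a and Mrvi1 lie at -0.40, -0.32 and -0.25, and the rest, in grey, were not called.

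The range of each value over 17 alternatives, refitted on the same libraries, describes how far it moved with the setting. For Npr3 the log2 fold change ran from 0.96 to 1.09, and it was called in all 17; since this contrast was known when the gene was chosen, the count adds no support. Gucy1a2 was called in 13 of 17, Pde3a in 12 and Mrvi1 in 11, and all 3 kept their direction. Of the 6 fits without 1 library, Gucy1a2 was called in 3, Pde3a in 2 and Mrvi1 in 1. These 3 genes were named for their call in the fit of all libraries, so their counts add no support either. The remaining genes of the first 7 were called in none of the 17.

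**Figure D4:**
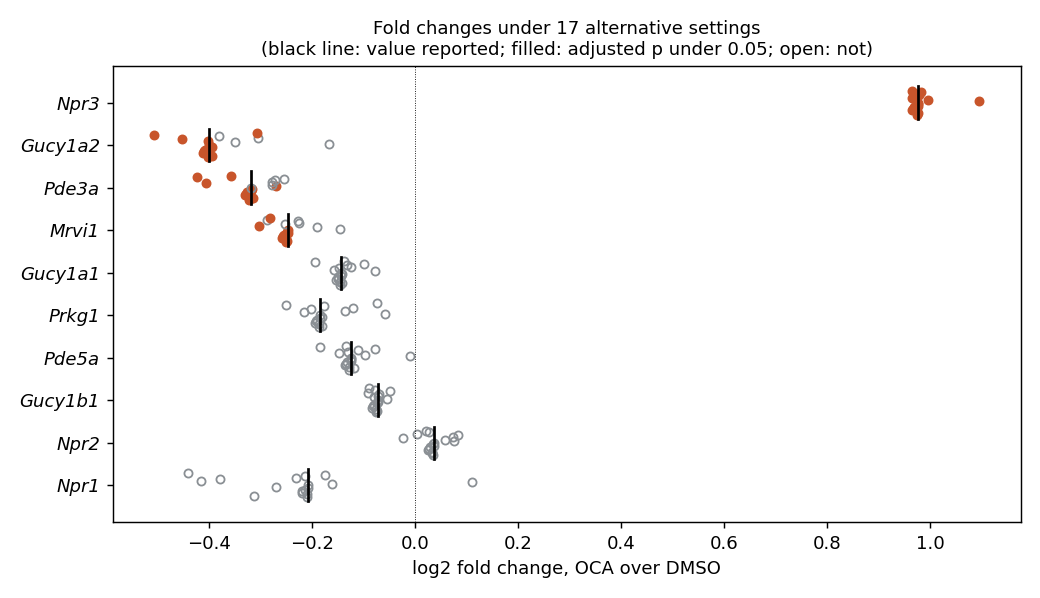
Log2 fold change of OCA over DMSO (horizontal axis) for 10 genes under 17 alternative settings, including fits without single libraries. Filled points passed the threshold of 0.05 and open points did not; Npr3 stays between 0.96 and 1.09, while Gucy1a2 reaches -0.17 and Pde5a -0.01 at their smallest.

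By the pattern of log2 levels over the 6 libraries, the genes most like Npr3 were Epb41l1, Marcksl1, Gprc5c, Arhgap29 and Il4ra, out of 10734 genes with a mean of at least 5 CPM. Likeness was the root mean square difference of centred log2 CPM, which was 0.0449 for Epb41l1, 0.0610 for Marcksl1, 0.0642 for Gprc5c, 0.0701 for Arhgap29 and 0.0884 for Il4ra. The measure mostly finds genes with the same difference between the groups. Epb41l1, for a membrane skeleton protein, went from 180 ± 7.22 to 343 ± 4.11 CPM, and Arhgap29, for a GTPase-activating protein, went from 228 ± 13.5 to 447 ± 13.1 CPM. Of the 5 other members above that level, Npr2 was the nearest to Npr3, at 0.473; Npr1 and Prkg2 lay under 5 CPM and were not compared.

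A promoter window of Npr3 is shown because Npr3 is the one gene of the 8 that was called. RefSeq's window on GRCm38.p6 belongs to a start site 1697 bases upstream of the start of the counted transcript, and its 250 bases before that start lie at chr15:11907372-11907621 on the minus strand. Capitals mark TGACG, the half-site of the cAMP response element, the only one of 5 searched motifs with a match here.
Npr3 upstream of the RefSeq start: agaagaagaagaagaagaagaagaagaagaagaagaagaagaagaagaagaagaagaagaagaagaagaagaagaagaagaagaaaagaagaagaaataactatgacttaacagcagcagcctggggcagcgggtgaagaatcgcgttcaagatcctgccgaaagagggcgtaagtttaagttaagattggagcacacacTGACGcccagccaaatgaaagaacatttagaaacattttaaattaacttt
The window opens with a run of aag repeats and has 38.8% G and C, against a median of 52.4% over the same stretch of 32851 windows. Both strands of the full window, which adds 50 bases after the start, were searched for TGACG, which 20.8% of all windows hold, for the inverted repeat of AGGTCA with 1 base between the repeats that FXR binds (0.0091% of windows), for AGGTCA alone (16.3%), for the GC box GGGCGG (35.7%) and for TATAAA (13.6%). The half-site AGGTCA is contained in the inverted repeat. The letters of the inverted repeat and of AGGTCA were in none of the 9 windows found for 7 of the 8 genes, and Prkg2 had no entry. Only exact letters within these windows were searched, and the inverted repeat is rare in all windows. Its absence here is therefore not informative, and FXR binding at these genes was not tested.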

How the data were processed

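The authors deposited 1 table of unadjusted exon counts, described so per the file headers and name, with 1 RefSeq transcript and its mm10 coordinates and exonic length for each symbol. Per the submitters' processing notes, STAR, HOMER and mm10 were used; the sources here state no versions, strand setting or handling of multiply mapped reads. The deposited values are like expected counts in steps of 0.5, and they were rounded to whole numbers (ties to even) for tests; CPM used them unrounded. No symbol was repeated, and 0 columns were left out.

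Groups came from the labels. Tests were run in R 4.3.3 with edgeR 4.0.16 by filterByExpr, TMM, glmQLFit and glmQLFTest, two-sided, Benjamini-Hochberg over 12687 genes, threshold 0.05. The SE was the absolute log2 fold change over the square root of F. The common biological coefficient of variation was 7.98%. Libraries of a group differed beyond sampling noise (chi-square per degree of freedom 4.40 to 8.00). A log2 level for the likeness measure had 0.5 CPM added. At 3 counts a library reads 0.181 to 0.251 CPM.

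Members and lists were chosen with earlier results of these data known. The text names every member, Nppa, Nppb, Nppc and Nos3, each list's called genes or else its 2 genes with the highest mean CPM, and the 5 genes nearest to Npr3; other genes named were chosen after their values were seen. Alternatives were DESeq2 1.42.0, limma-voom (limma 3.58.1), 3 scalings, 2 filters, a replicate block, robust estimation, length offsets (loess, span 0.5), each library left out, and OCA B and DMSO A left out together.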

Additional observations from a re-analysis of the deposited data

How the results depend on the processing

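Leaving out 1 library gave between 161 and 363 genes higher and between 104 and 758 lower, among the other pathway genes 0 to 1 higher and 0 to 3 lower, and log2 fold changes of -0.41 to 0.11 for Npr1 (above 0 without OCA A) and of -0.024 to 0.084 for Npr2 (below 0 without OCA B). Over all genes, 703 were lower without the count filter, 605 without OCA B and DMSO A, and 227 with the length offsets, where the other pathway genes had 1 higher (Pde2a) and 1 lower (Pde3a). The replicate letters were not shown to pair libraries: deviations from the group means correlated at 0.0077 for letter A, -0.047 for B and 0.076 for C, and OCA B correlated best with DMSO A (0.10). With the replicate block 306 genes were higher and 508 lower, and among the 8 genes and the other pathway genes the counts were the same as without it. As shares of plain CPM, Npr3 had 73.4% in DMSO and 84.2% in OCA, Npr2 25.5% and 15.3%, and Npr1 1.14% in DMSO; the change follows from the lengths of the transcripts. The number of members called, 1 higher and 0 lower, was the same in all 17 alternatives. The members were chosen with this contrast known, so this count adds no support. In the fit of all libraries, 2.18% of all tested genes were called higher and 3.03% lower. Levels per kb moved by less than 1 SD with library totals only, in 16 of 16 values. The counts of Npr1 and Prkg2 limit what can be said of them.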
